A study of Mus musculus with 4 samples.

Results

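The early response genes described here are Egr1, Egr3, Nr4a1, Nr4a2, Ier2, Ier3 and Ier5, which make up 7 of the 32265 gene rows in each deposited file. They were listed with their levels in these libraries already known, so the levels, ratios and counts given for them are a description of the choice as well as of the cells, and none was tested. Bone marrow cells of C57BL/6 mice had been sorted for absence of lineage markers and presence of Sca1 and cKit (LSK), the gate for stem and multipotent progenitor cells, and single cells were captured by inDrop, which labels each captured transcript with a unique molecular identifier (UMI). The 4 libraries, 1 per group, came from mice with chronic myeloid leukaemia (CML) given imatinib, untreated mice with CML, wild-type (WT) mice given imatinib, and untreated WT mice. Imatinib inhibits the ABL, KIT and PDGF receptor kinases. Dosing was by gavage with 400 mg/kg on alternate days, over 30 days in one label and over 4 weeks in another. The labels name neither the CML model and its alleles nor the age, sex or number of the mice behind a library. Levels are counts per 1000000 UMIs (CPM) summed over the kept cells of a library, given with exact 95% Poisson intervals that cover counting error only, because there was no second library of any group. In such sums fewer cells of a type and less RNA per cell cannot be told apart.

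Early response genes are transcribed within minutes of a signal from a growth factor, cytokine or stress, without new protein synthesis, through factors such as SRF, CREB and AP-1 that are already in the cell. Egr1 and Egr3 encode zinc finger transcription factors, and Egr1 is known in mouse marrow for keeping haematopoietic stem cells quiescent and in their niche. Nr4a1 and Nr4a2 encode orphan nuclear receptors, of which Nr4a1 acts as a suppressor of myeloid leukaemia in mice and both are linked to quiescence of stem cells. Ier2, Ier3 and Ier5 encode small proteins induced by growth factors, NF-kB or heat shock. The dissociation and sorting of tissue are also known to induce genes of this kind.

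Of the 7 genes, 4 had a start-site window in the RefSeq promoter table (GRCm38.p6), which runs from 250 bases before to 50 bases after the start. The 250 bases before the start are printed 5′ to 3′ for these 4 genes, because 2 of them hold several copies of the CREB half-site and 2 hold none. The windows lie at chr15:101266596-101266845 (plus strand) for Nr4a1, chr2:57124004-57124253 (minus strand) for Nr4a2, chr17:35821463-35821712 (plus strand) for Ier3 and chr1:155099637-155099886 (minus strand) for Ier5. Capitals mark TGACG, the CREB half-site, read on either strand.
Nr4a1: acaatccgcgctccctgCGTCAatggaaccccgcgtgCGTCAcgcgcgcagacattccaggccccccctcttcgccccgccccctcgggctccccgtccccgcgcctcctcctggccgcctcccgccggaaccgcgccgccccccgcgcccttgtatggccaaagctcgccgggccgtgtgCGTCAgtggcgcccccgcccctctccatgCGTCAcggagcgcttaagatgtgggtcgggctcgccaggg
Nr4a2: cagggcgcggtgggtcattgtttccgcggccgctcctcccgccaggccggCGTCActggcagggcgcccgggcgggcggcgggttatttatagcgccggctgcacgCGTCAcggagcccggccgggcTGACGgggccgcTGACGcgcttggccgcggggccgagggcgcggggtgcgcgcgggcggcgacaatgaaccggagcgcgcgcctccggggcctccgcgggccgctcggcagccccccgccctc
Ier3: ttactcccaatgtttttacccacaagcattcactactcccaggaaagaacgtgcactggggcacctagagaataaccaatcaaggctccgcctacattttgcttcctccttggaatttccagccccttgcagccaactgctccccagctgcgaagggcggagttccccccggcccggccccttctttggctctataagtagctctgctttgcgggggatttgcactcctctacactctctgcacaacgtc
Ier5: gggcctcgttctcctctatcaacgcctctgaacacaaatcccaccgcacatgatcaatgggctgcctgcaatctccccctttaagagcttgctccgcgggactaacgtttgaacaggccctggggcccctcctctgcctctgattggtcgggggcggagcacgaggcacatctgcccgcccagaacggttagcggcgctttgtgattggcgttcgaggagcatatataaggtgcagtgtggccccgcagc
The half-site occurred 4 times in the Nr4a1 window, with first bases 233, 213, 69 and 40 bases before the start, and 4 times in the Nr4a2 window, at 200, 144, 123 and 111 bases before it. It occurred 0 times in the windows of Ier3 and Ier5, and 20.8% of all 32851 RefSeq windows of this length held it at least once. The full element TGACGTCA was in 0 of the 4 windows and in 1.79% of all windows. The Egr motif GCGNGGGCG occurred once each in Nr4a1 and Nr4a2 and in 5.55% of all windows. The Nr4a motif AAAGGTCA and the SRF motif, the CArG box, were in none of the 4 windows and in 1.51% and 1.63% of all. All 5 motifs were searched on both strands of the whole 300-base window, and a TGACG inside a full element would count in both. G and C made up 72.3% and 81.7% of the Nr4a1 and Nr4a2 windows, against 54.0% and 59.0% of those of Ier3 and Ier5. The shares over all windows were not matched for this composition. These matches describe letters in a window, and binding was not measured.

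The kept cells numbered 5139 in the CML imatinib, 3032 in the CML untreated, 4187 in the WT imatinib and 3030 in the WT untreated library, with medians of 1198, 5160.5, 1486 and 3637.5 UMIs per cell. The lowest UMI total of a deposited cell was 200 in both imatinib files, against 1006 in the CML untreated and 1001 in the WT untreated file. The WT imatinib and WT untreated files shared 1135 cell barcode names, 20.4% and 39.6% of their names, while other pairs shared 80 to 340; of 1031 uniquely named shared cells, 0 had a correlation over 0.5 between the files. Kit, which encodes cKit, was at 136 to 176 CPM. Ly6a, which encodes Sca1, was at 51.05 CPM in CML imatinib and 95.8 in CML untreated, and at 49.6 in WT imatinib and 192 in WT untreated. Both gate markers were thus detected in every library, but Ly6a was lower in the imatinib library of each genotype. The 8 granulocytic markers summed to 20040 CPM in CML imatinib and 4359 in CML untreated, and to 26360 in WT imatinib and 5001 in WT untreated. The 6 neutrophil markers, which a lineage-negative gate should lack, summed to 8152 and 5570 CPM in the CML and WT imatinib libraries, against 14.4 and 15.4 in the CML and WT untreated libraries. Mitochondrial transcripts made up 4.74% and 3.66% of UMIs in CML and WT imatinib, against 6.69% and 7.22% in CML and WT untreated. Xist, expressed from the inactive X chromosome of females, was at 94.97, 2375, 3.15 and 1.52 CPM in CML imatinib, CML untreated, WT imatinib and WT untreated, and the Y-linked Ddx3y at 45.2, 1.504, 29.4 and 43.6 CPM. Depth and cell makeup therefore differ together with treatment in both genotypes and cannot be told apart from it at the level of a whole library. The sex markers differ with treatment in CML, whereas both WT libraries had low Xist and clear Ddx3y.

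All 7 genes were lower in both imatinib libraries than in the untreated library of the same genotype, although for Egr3 in WT the interval of the ratio included 0. Between the genotypes, Egr1, Ier2 and the sparse Egr3 were higher in CML untreated than in WT untreated cells, while Nr4a1, Ier3 and Ier5 were slightly lower and Nr4a2 was within counting error.

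Egr1 stood at 30.9 CPM (27.5 to 34.7) in CML imatinib, 823 CPM (811 to 835) in CML untreated, 33.6 CPM (29.8 to 37.8) in WT imatinib and 419 CPM (408 to 430.0) in WT untreated cells. The imatinib libraries overlapped each other and lay far below both untreated libraries, whose intervals were apart. The CPM ratio was 26.6-fold lower in CML imatinib than in CML untreated (log2 -4.73, interval -4.90 to -4.57) and 12.5-fold lower in WT imatinib than in WT untreated (log2 -3.64, -3.82 to -3.47). Egr3, a relative induced with Egr1 by the same signals in lymphocytes and neurons, was at 1.78, 4.23, 0.849 and 1.67 CPM in CML imatinib, CML untreated, WT imatinib and WT untreated cells, from 17, 90, 7 and 22 UMIs. Only the CML untreated interval (3.40 to 5.20 CPM) was apart from those of the other libraries. In the family, Egr2 was at 4.82, 8.83, 2.67 and 3.65 CPM and Egr4 at 1.05, 2.11, 0.364 and 1.22 CPM in the same order of libraries, all under the 50 CPM needed for a call. Both corepressors that bind Egr proteins had smaller ratios than Egr1. Nab1 was at 36.1 CPM in CML imatinib and 51.2 in CML untreated (log2 -0.50), and at 43.3 in WT imatinib and 47.3 in WT untreated. Nab2 was at 5.03 CPM in CML imatinib and 12.97 in CML untreated (log2 -1.37, -1.84 to -0.92), and at 6.43 in WT imatinib and 8.21 in WT untreated (log2 -0.35, -0.86 to 0.13).

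Nr4a1 reached 5.14 CPM (3.80 to 6.79) in CML imatinib, 73.6 CPM (70.0 to 77.3) in CML untreated, 2.91 CPM (1.87 to 4.33) in WT imatinib and 93.1 CPM (87.9 to 98.4) in WT untreated cells. It was 14.3-fold lower in CML imatinib than in CML untreated (interval 10.8 to 19.5) and 32.0-fold lower in WT imatinib than in WT untreated (21.4 to 50.1), the largest WT ratio among the 7 genes. The WT value rests on 24 UMIs in the imatinib library, and without the cells whose barcode names recur in another library its log2 ratio was -6.07 in place of -5.00. Nr4a2 was at 5.56 CPM (4.16 to 7.27) in CML imatinib, 36.8 CPM (34.3 to 39.5) in CML untreated, 5.70 CPM (4.19 to 7.58) in WT imatinib and 34.6 CPM (31.5 to 37.9) in WT untreated cells. The intervals of the imatinib libraries overlapped each other, as did those of the untreated libraries, and the imatinib intervals lay below the untreated ones. The ratio was 6.63-fold lower with imatinib in CML and 6.07-fold lower in WT, but the gene missed the 50 CPM floor for a call. The third receptor of the family, Nr4a3, stayed between 1.29 and 1.97 CPM in all 4 libraries.

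Ier2, a nuclear regulator of immediate early transcription, was at 112 CPM (106 to 119) in CML imatinib, 502 CPM (493 to 512) in CML untreated, 110.2 CPM (103 to 118) in WT imatinib and 331.5 CPM (322 to 341.5) in WT untreated cells. It was 4.47-fold lower with imatinib in CML and 3.01-fold lower in WT. Ier3, a survival factor induced by NF-kB, was at 62.2 CPM (57.3 to 67.4) in CML imatinib, 119.7 CPM (115 to 124) in CML untreated, 54.8 CPM (49.9 to 60.1) in WT imatinib and 142 CPM (136 to 149) in WT untreated cells. This gave the smallest ratio in CML among the genes that passed the floor, 1.93-fold lower (1.76 to 2.11), just inside the 2-fold limit, against 2.59-fold lower in WT. Ier5, which in human cells acts with the heat shock factor HSF1, was at 25.0 CPM (21.9 to 28.3) in CML imatinib, 66.0 CPM (62.6 to 69.6) in CML untreated, 14.8 CPM (12.3 to 17.7) in WT imatinib and 82.5 CPM (77.7 to 87.5) in WT untreated cells. The 4 intervals were apart, with a 2.65-fold lower level with imatinib in CML and a 5.58-fold lower level in WT. Its relative Ier5l, at 5.56, 2.40, 2.30 and 1.44 CPM in CML imatinib, CML untreated, WT imatinib and WT untreated, did not share this order.

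**Figure D1:**
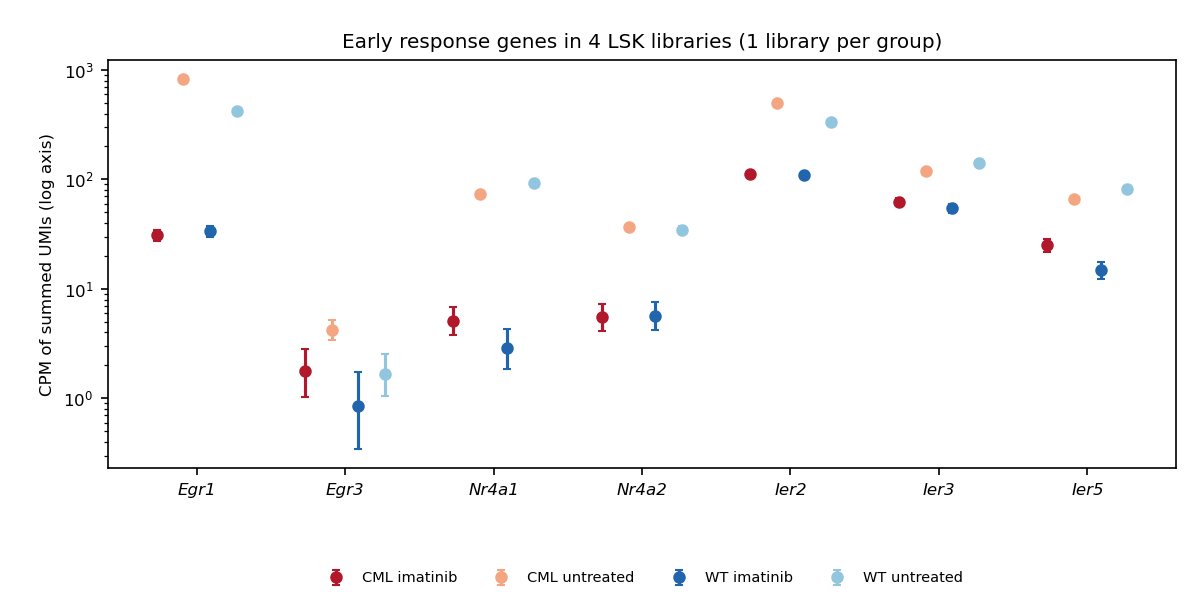
CPM of the 7 genes (log axis) in the 4 libraries, with exact 95% Poisson intervals. Egr1 sits at 30.9 and 33.6 CPM in the CML and WT imatinib libraries, against 823 and 419 CPM in the CML and WT untreated libraries, and each of the other 6 genes is also lower in the imatinib library of each genotype.

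A gene was called if its CPM ratio reached 2-fold and the library with more of it held 50 CPM and 50 UMIs or more. In CML imatinib against CML untreated, 5 of the 7 genes passed this floor and 4 were called lower (Egr1, Nr4a1, Ier2 and Ier5), where 7.95% of all 4265 genes that passed it were called lower and 9.4% higher. In WT imatinib against WT untreated, 5 passed and all 5 were called lower (Ier3 besides those 4), beside 5.45% of 4092 genes called lower and 7.58% higher. The genes had been listed with these contrasts known, so nothing is read from the excess. Over the 6 members with at least 20 CPM the median log2 ratio was -2.44 in CML and -2.54 in WT, against -0.00 and -0.04 over all such genes. The difference between the imatinib ratios, CML minus WT, was -1.09 for Egr1 and -0.57 for Ier2, and 1.16 for Nr4a1, 1.08 for Ier5 and 0.42 for Ier3. These differences on the log2 scale were not tested.

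Many other immediate early genes differed in the same direction. Of a list of 40, 29 passed the floor in CML and 24 were called lower and 0 higher in CML imatinib than in CML untreated, with a median log2 ratio of -2.21. In WT, 25 passed and 19 were called lower and 0 higher, with a median of -1.60. The largest CML ratios were those of Dusp5, a phosphatase that inactivates ERK (3.35 CPM in CML imatinib, 69.7 in CML untreated, log2 -4.38), the stress factor Atf3 (2.20 and 39.3 CPM, -4.16, under the floor for a call), the NF-kB inhibitor Tnfaip3 (12.7 and 157 CPM, -3.63) and the mRNA decay factor Zfp36 (232 and 2194 CPM, -3.24). In WT they were Dusp5 (3.28 CPM in WT imatinib, 52.2 in WT untreated, log2 -3.99), Nfkbiz, an atypical IkB protein (4.85 and 45.5 CPM, -3.23, under the floor for a call), Tnfaip3 (11.8 and 95.5 CPM, -3.02) and Zfp36l1, a relative of Zfp36 (8.37 and 59.8 CPM, -2.84). Over all genes that passed the floor, 7.95% were called lower in CML and 5.45% in WT. The highest list ratios at 20 CPM or more were those of Gadd45b, at log2 0.74 in CML and 0.98 in WT, under the floor for a call. The list was also chosen with earlier results of these libraries known. A gene could pass the floor through its level in the untreated library alone, so nothing is read from these counts.

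Without imatinib, Egr1 was 1.97-fold higher in CML untreated than in WT untreated cells (log2 0.97, 0.93 to 1.02), just under the 2-fold limit, and Ier2 was 1.52-fold higher (log2 0.60). Egr3 was 2.53-fold higher (log2 1.34, 0.65 to 2.08), from 90 and 22 UMIs at levels under the floor for a call. Nr4a1 (log2 -0.34), Ier5 (-0.32) and Ier3 (-0.25) were lower in CML untreated with intervals away from 0, and Nr4a2 was at 0.09 (-0.08 to 0.26). Of the 5 members that passed the floor 0 were called in either direction, where 0.523% of 3824 genes were called higher and 0.392% lower. When cells with mature-cell marker sums were left out, the Egr1 log2 ratio was 1.05 and Egr1 was called. In the 40-gene list 7 of 27 passing genes were called higher and 0 lower. The largest ratios at 20 CPM or more were those of the AP-1 subunit Fosb (516 CPM in CML untreated, 168 in WT untreated, log2 1.62), Atf3 (39.3 and 13.6 CPM, 1.53, under the floor for a call), the phosphatase gene Dusp1 (579 and 231 CPM, 1.33) and the transcription factor Klf2 (175 and 70.2 CPM, 1.32). Xist (2375 CPM in CML untreated, 1.52 in WT untreated) moves with this comparison, and its part was not tested. With imatinib in both, 2 members passed the floor and 0 were called, beside 2.32% of 3914 genes called higher and 0.179% lower in CML imatinib than in WT imatinib. Egr1 was at log2 -0.12 (-0.36 to 0.12), Nr4a2 at -0.04 and Ier2 at 0.03 there, all with intervals that include 0. Nr4a1 was higher in CML imatinib than in WT imatinib by log2 0.82 (0.09 to 1.59) and Ier5 by 0.75 (0.43 to 1.08), with intervals away from 0 at levels under the floor, Ier3 was at 0.18 and Egr3 at 1.07 (-0.27 to 2.58). The 4 comparisons share libraries in pairs, so they are not independent of one another.

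The share of cells with a UMI was compared after each cell had been thinned to 500 UMIs. Egr1 was then found in 1.60% of CML imatinib cells (1.27 to 1.98), 31.1% of CML untreated cells (29.5 to 32.8), 2.01% of WT imatinib cells (1.60 to 2.48) and 18.8% of WT untreated cells (17.4 to 20.3). Without thinning the shares were 3.62%, 65.7%, 4.87% and 49.1% in the same order. Ier2 was found in 5.43% and 21.7% of CML imatinib and CML untreated cells and in 5.33% and 17.3% of WT imatinib and WT untreated cells. The lower sums in imatinib libraries thus went with fewer cells that carry a UMI at equal depth. In untreated libraries a low share was available for comparison: Nr4a1 was found in 0 of 318 Elane cells of CML untreated marrow (which allows up to 0.943% of cells with a UMI at that depth; median 7372 UMIs before thinning), against 8.42% of 558 Hlf cells (median 5273). Without thinning, 3.46% of those Elane cells and 25.3% of those Hlf cells had an Nr4a1 UMI. Thinned to 1000 UMIs, 18.4% of CML imatinib, 63.2% of CML untreated, 16.6% of WT imatinib and 56.5% of WT untreated cells carried at least 1 of the 7 genes. Cells with 3 or more made up 0.227% of CML imatinib and 0 of 2869 WT imatinib cells (which allows up to 0.105%), whereas CML untreated held 7.85% with 3 and 2.08% with 4 or more, and WT untreated 6.63% and 1.42%.

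**Figure D2:**
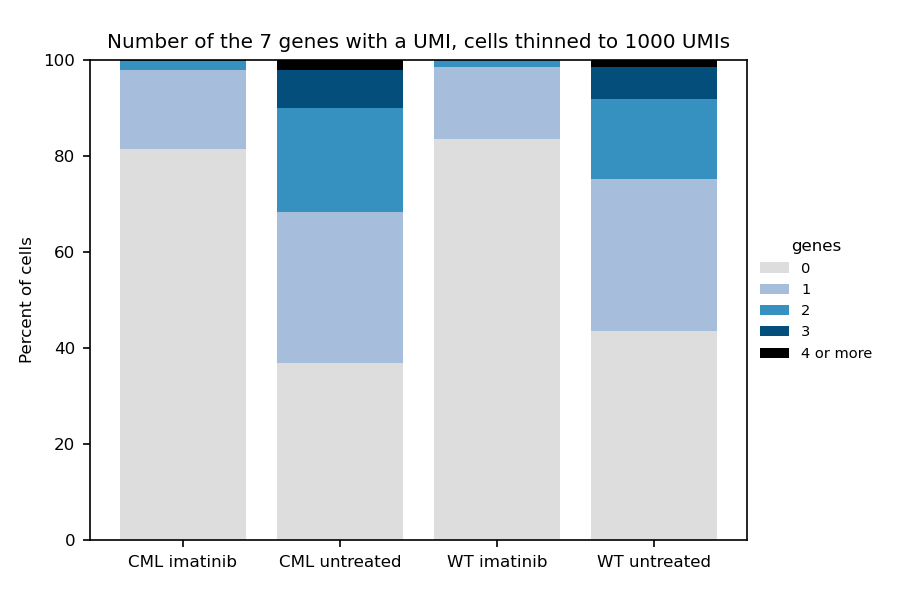
Percent of cells (0 to 100) carrying 0, 1, 2, 3 or 4 or more of the 7 genes after thinning to 1000 UMIs, in the CML imatinib, CML untreated, WT imatinib and WT untreated libraries. None of the genes was found in 81.6% and 83.4% of CML and WT imatinib cells, against 36.8% and 43.5% of CML and WT untreated cells.

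The genes occurred together in the untreated libraries and in CML imatinib. In all 15 pairs among the 6 members other than Egr3, the share of cells with a UMI of one gene was higher among cells that had the other, in both untreated libraries. Some intervals overlapped, as for Ier2 in WT untreated cells with Nr4a2 (31.5%, 23.0 to 41.0) and without it (27.7%, 26.1 to 29.3). Pairs of other genes were not compared, so the counts of pairs have no background. Over all cells, the part of cell makeup in them was not tested. In CML untreated cells Ier2 was found in 48.4% of 1272 cells with Egr1 and in 26.1% of cells without it, and in WT untreated cells in 40.2% of 830 cells with Egr1 and 23.1% without. Nr4a1 was in 12.0% of cells with Egr1 and 3.81% without it in CML untreated marrow, and in 14.2% and 6.36% in WT untreated marrow. The higher share was therefore seen between Egr1, the Nr4a genes and the Ier genes, and within the Nr4a and Ier families. No pair within the Egr family was compared. For Nr4a2 with and without Nr4a1 the intervals overlapped in both untreated libraries. In CML untreated cells these shares were 5.46% (2.85 to 9.33) and 3.20% (2.58 to 3.92), and in WT untreated cells 5.81% (3.29 to 9.41) and 3.46% (2.81 to 4.21). In CML imatinib cells 9 of the 10 pairs that could be compared had a higher share, with a median ratio of 1.78, and 6 of 6 in its Elane cells, with a median of 2.13. Over all CML imatinib cells Ier2 was in 26.3% (16.9 to 37.7) of cells with Egr1 and 9.59% (8.56 to 10.7) without it. The intervals of the other pairs there overlapped. In WT imatinib cells 2 of 6 pairs did, with a median of 0.981, and these imatinib values rest on as few as 1 cell with both genes. In the untreated libraries, within Hlf cells alone, 14 of 15 pairs kept a higher share in CML untreated, with a median ratio of shares of 1.55 against 1.73 over all cells, and 10 of 15 in WT untreated, with a median of 1.05 against 1.53.

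To describe the genes by cell type, cells were assigned to 4 classes by 1 marker gene each: Hlf for stem cells (at least 1 UMI), Dntt for lymphoid progenitors (2 UMIs), Pf4 for megakaryocytic cells (2 UMIs) and Elane for granulocytic progenitors (3 UMIs and 0.2% of the cell's UMIs), leaving out cells that met more than 1. Hlf cells numbered 62, 558, 65 and 416 in CML imatinib, CML untreated, WT imatinib and WT untreated, Dntt cells 11, 208, 11 and 259, Pf4 cells 6, 91, 14 and 97, and Elane cells 3228, 318, 2734 and 281. Elane cells thus made up 62.8% of CML imatinib and 65.3% of WT imatinib cells, against 10.5% of CML untreated and 9.27% of WT untreated cells. The Hlf class rests on a single UMI in 41 of 62, 216 of 558, 43 of 65 and 199 of 416 cells. All 10 stem markers exceeded their library level in the Hlf cells of both untreated libraries, and 8 of 10 did in WT imatinib. In CML imatinib 6 of 10 did. There the 6 erythroid markers summed to 6957 CPM, and 9 cells with an erythroid marker sum over its threshold held 73.4% of the UMIs of the class, so as a sum it goes against the stem label. No ratios are given for Dntt and Pf4 cells with imatinib, which number under 20.

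In untreated marrow Egr1, Nr4a1, Nr4a2, Ier2 and Ier5 were lowest in Elane cells among the 4 classes. Egr1 was at 191 CPM in Elane cells and 1180, 860 and 834 CPM in Hlf, Dntt and Pf4 cells of CML untreated marrow, and at 87.9 CPM in Elane cells and 471, 477 and 406 CPM in Hlf, Dntt and Pf4 cells of WT untreated marrow. Nr4a1 showed the widest span: 4.51 CPM (2.47 to 7.57) in Elane cells against 125 CPM (114 to 136.5) in Hlf cells of CML untreated marrow, 27.7-fold lower, and 14.3 CPM (9.59 to 20.6) in Elane against 132 CPM (115 to 150.3) in Hlf cells of WT untreated marrow, 9.21-fold lower. Nr4a2 was at 10.3 CPM in Elane and 56.8 CPM in Hlf cells of CML untreated marrow, and at 8.40 and 56.8 CPM in those of WT untreated marrow. Within a class the call needed 50 CPM and 20 UMIs in the higher group. In both untreated libraries 5 genes were called lower in Elane than in Hlf cells (Egr1, Nr4a1, Nr4a2, Ier3 and Ier5), beside 6.46% of genes in CML and 7.07% in WT, and Ier2 was 1.83-fold and 1.89-fold lower.

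Between Pf4 and Hlf cells Ier3 differed most in both untreated libraries. Ier3 was at 46.5 CPM in Pf4 and 178 CPM in Hlf cells of CML untreated marrow (3.84-fold lower) and at 26.4 CPM in Pf4 and 221 CPM in Hlf cells of WT untreated marrow (8.37-fold lower, from 11 UMIs). Ier3 was called lower in both libraries and Nr4a1 in CML untreated (57.1 CPM in Pf4, 125 in Hlf cells), beside 5.32% of genes in CML and 5.88% in WT. Ier5 was instead higher in Pf4 cells, with 113 CPM against 62.5 CPM in Hlf cells of CML untreated marrow (log2 0.85, 0.48 to 1.21) and 96.1 against 75.7 CPM in WT untreated marrow, where the interval included 0. Between Dntt and Hlf cells 0 members were called in either library, beside 1.14% called higher and 1.79% lower in CML and 1.84% and 1.64% in WT. Cells were also picked by sums of other marker genes, in sets that overlap the 4 classes. The sum needed 2 UMIs for mast or basophil and for T markers, and 5 UMIs and 0.5% of the cell's UMIs for erythroid markers. Of 198 CML untreated cells over the T threshold, 29 were Hlf cells and 33 Dntt cells. Cells over the mast or basophil threshold had Egr1 at 949.7 CPM in CML untreated and 1039 CPM in WT untreated. Those over the T threshold had Ier5 at 169 and 219.5 CPM, and those over the erythroid threshold had Ier3 at 8.67 and 18.2 CPM.

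**Figure D3:**
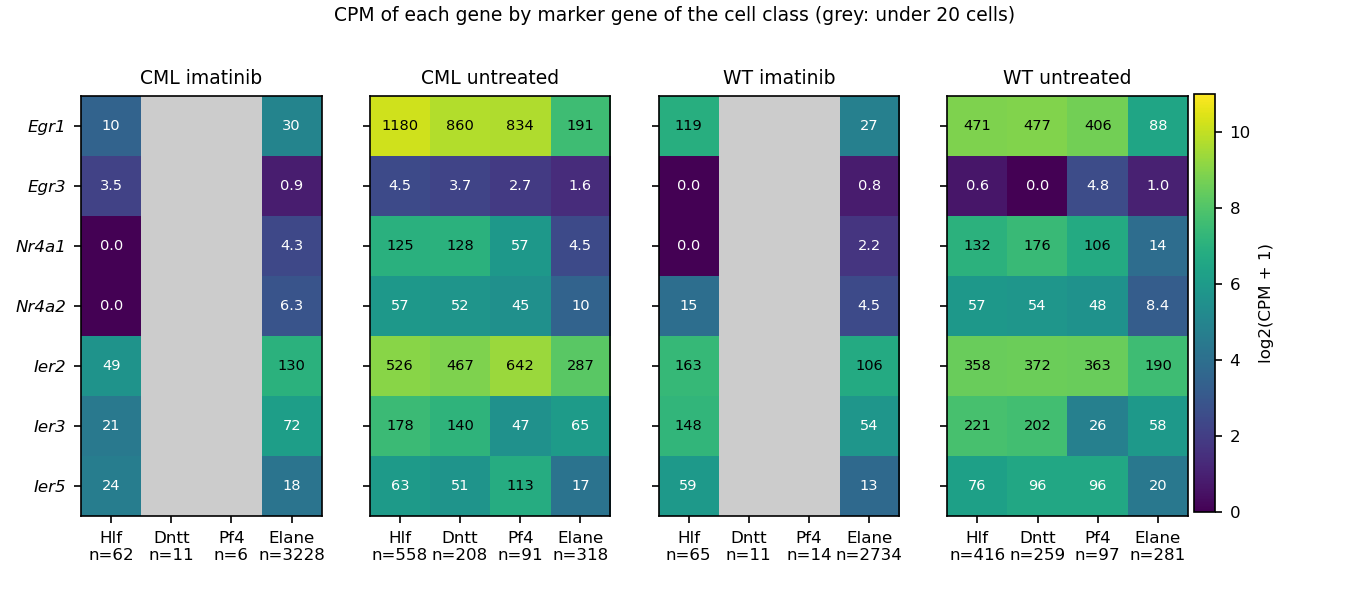
CPM of each gene (numbers, colour by log2(CPM + 1)) in Hlf, Dntt, Pf4 and Elane cells of the CML imatinib, CML untreated, WT imatinib and WT untreated libraries, with the number of cells under each column and classes under 20 cells in grey. The Elane column is the lowest for Egr1, Nr4a1, Nr4a2, Ier2 and Ier5 in both untreated libraries, and Ier3 is lowest in Pf4 cells.

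Within Elane cells, the class with the most cells in both imatinib libraries, the imatinib ratios of the 3 genes that passed the floor (Egr1, Ier2 and Ier3) were smaller than over whole libraries. Egr1 was at 30.3 CPM (26.0 to 35.2) in CML imatinib and 191 CPM (176 to 207) in CML untreated Elane cells, 6.29-fold lower, and at 27.0 CPM (23.1 to 31.3) in WT imatinib and 87.9 CPM (75.5 to 101.8) in WT untreated Elane cells, 3.26-fold lower. Ier2 was at 130.5 and 287 CPM in CML imatinib and CML untreated, 2.20-fold lower, and at 106 and 189.7 CPM in WT imatinib and WT untreated, 1.79-fold lower. Egr1 and Ier2 were called lower in CML, beside 5.85% of genes, and Egr1 in WT, beside 2.51%. Ier3, at 71.7 CPM in CML imatinib and 64.8 in CML untreated Elane cells (log2 0.15, -0.10 to 0.40) and at 54.0 and 58.3 CPM in WT imatinib and WT untreated (log2 -0.11, -0.42 to 0.20), had intervals that include 0. Ier5 was at 17.8 and 17.4 CPM in CML imatinib and CML untreated (log2 0.03), and at 12.7 and 20.3 CPM in WT imatinib and WT untreated (log2 -0.67, -1.23 to -0.09). Nr4a1, low in Elane cells throughout, was at 4.29 and 4.51 CPM in CML imatinib and CML untreated, and at 2.20 and 14.3 CPM in WT imatinib and WT untreated (log2 -2.71, -3.74 to -1.74, from 14 and 29 UMIs). Nr4a2 was at 6.34 and 10.3 CPM in CML imatinib and CML untreated, and at 4.55 and 8.40 CPM in WT imatinib and WT untreated, with intervals of both ratios that include 0. Within this class the imatinib libraries were therefore lower in Egr1 and Ier2 in both genotypes and, under the floor for a call, in Nr4a1 and Ier5 in WT. The intervals of Ier3 and, in CML, of Ier5 and Nr4a1 included 0. Marker levels of the class moved with treatment: the 8 granulocytic markers summed to 30000 CPM in CML imatinib and 16830 in CML untreated Elane cells, and to 31290 in WT imatinib and 20060 in WT untreated. The 6 neutrophil markers summed to 4290 and 82.2 CPM in CML imatinib and CML untreated, and to 3137 and 79.5 CPM in WT imatinib and WT untreated. Cells over the neutrophil threshold numbered 241 in CML imatinib and 125 in WT imatinib Elane cells, against 0 in both untreated libraries. Without cells over any mature-cell threshold the log2 ratio of Egr1 was -2.65 in CML and -1.64 in WT, and that of Ier2 -1.09 in CML and -0.84 in WT. Median depth was 1436 UMIs in CML imatinib and 7372 in CML untreated Elane cells, and 1965 in WT imatinib and 7115 in WT untreated. After thinning to 500 UMIs the Egr1 log2 ratio was -3.02 in CML and -1.86 in WT, where it rested on 16 UMIs in WT untreated cells and was not called. Of the 40 other immediate early genes 11 of 21 passing were called lower in CML Elane cells and 8 of 20 in WT Elane cells, with Zfp36 at 247 CPM in CML imatinib and 957.5 in CML untreated and at 192 in WT imatinib and 600.2 in WT untreated Elane cells.

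Within Hlf cells the imatinib libraries held few UMIs. Egr1 was at 10.5 CPM (2.16 to 30.6, 3 UMIs) in CML imatinib and 1180 CPM (1146 to 1214) in CML untreated Hlf cells, a ratio of 112.5-fold with an interval of 38.5 to 546. It was at 119 CPM (51.3 to 234, 8 UMIs) in WT imatinib and 471 CPM (439 to 505) in WT untreated Hlf cells, 3.97-fold lower (log2 -1.99). This log2 ratio was -1.30 with 1 UMI required of every marker, -1.25 with stricter marker thresholds, -1.40 after thinning to 500 UMIs, -1.27 without shared barcode names, -2.73 with cells of several markers kept and -3.08 with at least 1000 UMIs per cell, and Egr1 was called in each. Ier2 was at 163 CPM in WT imatinib and 358 in WT untreated Hlf cells (log2 -1.13), a call that was lost with 1 UMI required of every marker (-0.39), with stricter thresholds (-0.42), after thinning (-0.68) and with the mean of single-cell CPM (-0.95). Nr4a1 had 0 UMIs in both imatinib libraries. With a floor of 3 UMIs per class it was at least 11.9-fold lower than the 125 CPM of CML untreated Hlf cells. It was at least 2.96-fold lower than the 132 CPM of WT untreated Hlf cells. The exact Poisson intervals reach above that floor, to 12.9 CPM in CML imatinib and 54.7 CPM in WT imatinib, so the bounds given here hold for the floor only. Without the mature-cell marker cells, which held 76.5% of the UMIs of the CML imatinib class, the CML bound was 2.96-fold, and with stricter marker thresholds 1.38-fold in CML and 1.14-fold in WT, where Nr4a1 was not called. In WT the call of Nr4a1 was also lost with 1 UMI required of every marker (at least 1.87-fold), with at least 1000 UMIs per cell (1.57-fold) and without shared barcode names (1.46-fold). In CML 6 of 7 genes were called lower (all except Egr3), beside 26.8% of all genes, and in WT 4 (Egr1, Nr4a1, Nr4a2 and Ier2), beside 26.0%. Of the 40 other immediate early genes, 26 of 28 passing were called lower and 1 higher in CML Hlf cells. In WT Hlf cells 6 of 23 were called lower and 0 higher. Among all genes, 24.7% were called higher in CML Hlf cells and 2.18% in WT Hlf cells. A higher call needed enough UMIs in the imatinib class, which held 286167 UMIs in CML and 67393 in WT. A lower call needed them in the untreated class, which held 4030073 UMIs in CML and 1691193 in WT. The part of this floor and of cell makeup in the shares of all genes was not tested, so they do not measure how much the classes differ. Without cells that have mature-cell marker sums, 47 CML imatinib and 505 CML untreated Hlf cells remained: Egr1 was at 29.7 and 1234 CPM (2 and 4216 UMIs), Ier2 at 74.2 and 548.5 CPM, Ier3 at 89.1 and 192 CPM, and Ier5 turned round to 104 and 62.9 CPM (log2 0.72, 7 UMIs in CML imatinib).

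**Figure D4:**
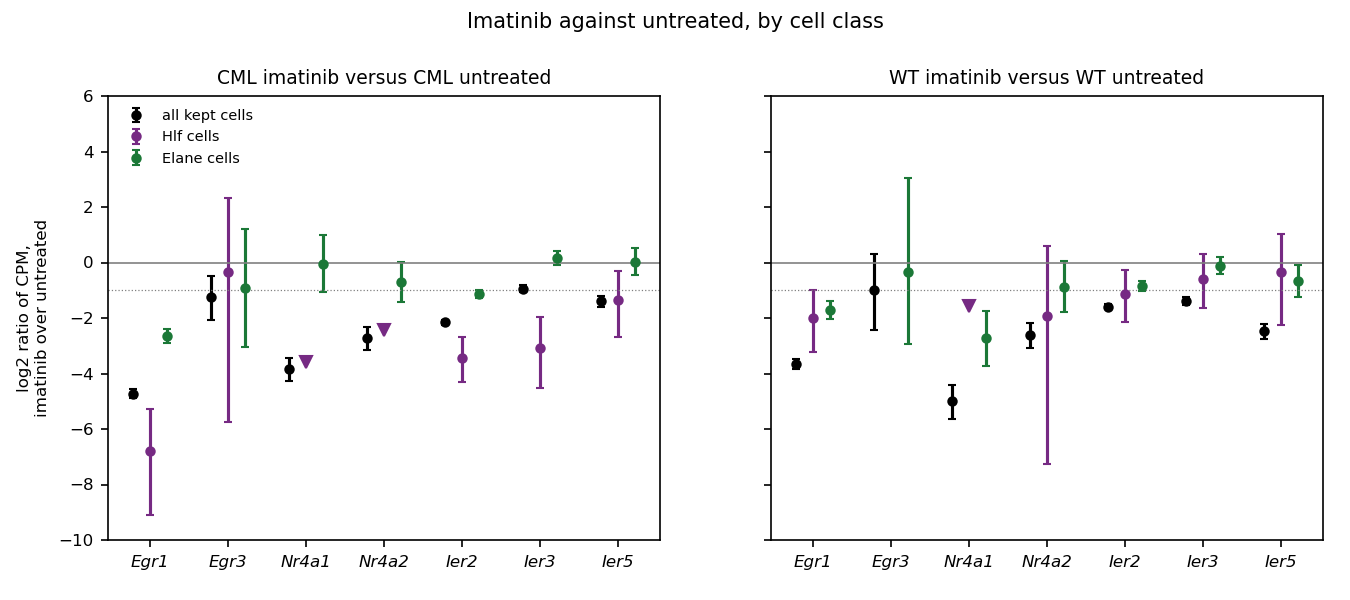
Log2 ratios of CPM, imatinib over untreated, for the 7 genes over all kept cells, Hlf cells and Elane cells, in CML (left) and WT (right), with 95% counting intervals; triangles are the bounds of genes with 0 UMIs in the imatinib class, the dotted line marks 2-fold, and Egr3 has no point for Hlf cells in WT. In Elane cells only Egr1, at -2.65 in CML and -1.70 in WT, and Ier2 in CML, at -1.14, lie below the dotted line among genes that passed the floor.

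The higher Egr1 of CML untreated over WT untreated cells was present in each class. In Hlf cells it was at 1180 CPM in CML untreated and 471 in WT untreated (log2 1.32, 1.22 to 1.43), in Dntt cells at 860 and 477 CPM (0.85), in Pf4 cells at 834 and 406 CPM (1.04) and in Elane cells at 191 and 87.9 CPM (1.12). Egr1 was called higher in Hlf, Pf4 and Elane cells, beside 0.655%, 5.22% and 0.856% of genes, and missed the limit in Dntt cells, where 1.62% of genes were called higher. These calls depended on the marker thresholds. With 1 UMI required of every marker, Egr1 was called in Hlf (log2 1.35) and Dntt cells (1.02) but not in Pf4 (0.80) or Elane cells (0.95). Nr4a1 was then called lower in Pf4 cells (-1.04). Ier2 was higher in CML untreated by log2 0.56, 0.33, 0.82 and 0.60 in Hlf, Dntt, Pf4 and Elane cells, all with intervals away from 0 but under 2-fold. Nr4a1 was not: its log2 ratio was -0.08 (-0.31 to 0.16) in Hlf, -0.47 in Dntt, -0.89 in Pf4 and -1.67 in Elane cells, the last from 14 UMIs in CML untreated and 29 in WT untreated. Nr4a2 was at 56.8 CPM in Hlf cells of both untreated libraries, and its intervals included 0 in all 4 classes. Ier5 was lower in CML untreated Dntt cells, at 51.02 against 95.8 CPM in WT untreated Dntt cells (log2 -0.91, -1.35 to -0.47), while its intervals in the other 3 classes included 0. In CML untreated cells Egr1 and Ier2 were thus higher in all 4 classes with intervals away from 0, and Nr4a1, Nr4a2, Ier3 and Ier5 were in 0 of the 4.

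**Figure D5:**
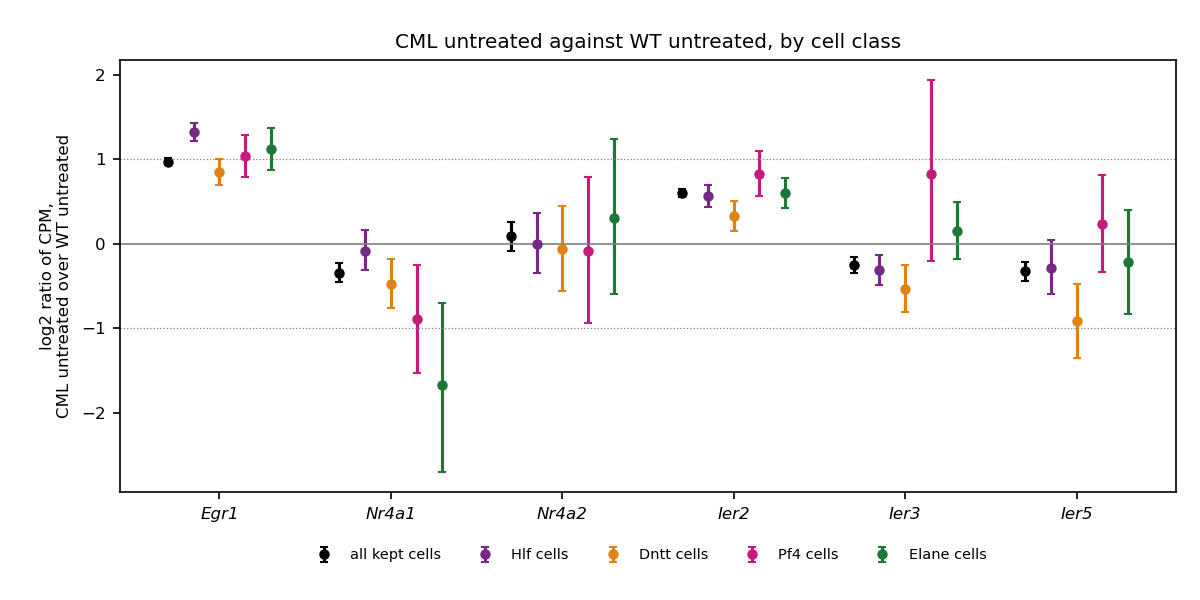
Log2 ratios of CPM, CML untreated over WT untreated, for 6 of the genes (Egr3 left out for its few UMIs) over all kept cells and in Hlf, Dntt, Pf4 and Elane cells, with 95% counting intervals and dotted lines at 2-fold. Egr1 lies between 0.85 and 1.32 and Ier2 between 0.33 and 0.82 in the classes, whereas Nr4a1 lies at or below -0.08.

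The genes most like the members were found over the 12 groups of library and class with at least 20 cells, by the correlation of log2(CPM + 10) with the mean centred profile of the 7 members. Of 5976 genes ranked, the first 8 were Pde4b, a phosphodiesterase that degrades cAMP (r = 0.984, 6.99 to 204 CPM), Ptprcap, a partner of CD45 (0.972), Prkacb, a catalytic subunit of protein kinase A (0.967), Zfp36 (0.963, 112 to 2996 CPM), the GTPase gene Gem (0.949), Pnrc1 (0.945), Rai1 (0.945) and Csrnp1 (0.944). The members' own correlations with this mean were 0.992 for Nr4a2, 0.974 for Egr1, 0.937 for Nr4a1, 0.933 for Ier2, 0.832 for Ier5, 0.598 for Ier3 and 0.252 for Egr3. Each member is itself part of the mean, so its value cannot be compared with those of the other genes. The 12 groups come from 4 libraries and share their depth and treatment, so these values are a description of likeness. Ier3 and Egr3 had the lowest correlations among the members. Ier3 was low in Pf4 cells and Egr3 was near the limit of detection, but the part of either in the correlations was not tested.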

How the data were processed

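Each deposited file is a gene by cell table of a normalized signal whose values sum to 2839.18 in every cell, as tested on the files. Bowtie 1.1.1, Partek 8.0 and the build GRCm38 are listed, per the submitters' processing notes; their roles are not given in the sources used here. Within a cell the deposited signal comes in whole multiples of its smallest nonzero value, so division by that value gave UMI counts (100% whole within 0.02). A header holds 1 name more than there are columns, so cells were taken by position.

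Cells needed 500 UMIs, 200 genes and at most 20% mitochondrial UMIs. UMIs were summed per library or class and scaled to CPM. With 1 library per group no test was possible. Ratios have exact conditional binomial (Clopper-Pearson) 95% intervals and levels exact Poisson ones. A count of 0 was set to a floor of 3 UMIs per group. The code that makes the calls was checked on simulated counts. No doublet caller was run; 62, 100, 81 and 86 cells of CML imatinib, CML untreated, WT imatinib and WT untreated met several class markers and were left out of classes. The other genes named are family members, up to 4 of the 40-gene list per comparison with the largest absolute log2 ratio at 20 CPM or more, and the 8 genes most like the members. The members and lists were chosen with earlier results of these data known; the thresholds of the mature-cell marker sums were set after the values were seen. Alternatives covered cell filters, scaling (TMM from edgeR 4.0.16), thinning, marker thresholds and removal of cells. NumPy 2.4.6, SciPy 1.17.1 and pandas 2.3.3 were used.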

Additional observations from a re-analysis of the deposited data

Results flagged for a closer look

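The flagged values are pairs of log2 ratios under the same contrast that have opposite signs in different settings, with counting intervals away from 0. None of the differences was tested, since each group had 1 library.

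For CML over WT, Nr4a1 was at -0.34 between the untreated libraries and at 0.82 between the imatinib libraries, where the levels were 5.14 CPM in CML imatinib and 2.91 CPM in WT imatinib. Ier5 was likewise at -0.32 between the untreated and 0.75 between the imatinib libraries. In Hlf cells Egr1 was at 1.32 for CML untreated over WT untreated and at -3.50 for CML imatinib over WT imatinib, from 3 and 8 UMIs, and Ier2 was at 0.56 and -1.74 in the same 2 comparisons. For CML imatinib over WT imatinib, Ier2 was at -1.74 in Hlf cells and 0.30 in Elane cells, and Ier3 at -2.82 in Hlf cells and 0.41 in Elane cells. In the CML imatinib Hlf class 15 cells over a mature-cell marker threshold, 9 of them over the erythroid one, held 76.5% of the UMIs. Without such cells in either library, the log2 ratios of CML imatinib over WT imatinib in Hlf cells were -2.03 for Egr1 (2 and 8 UMIs), -1.17 for Ier2 (5 and 11 UMIs) and -0.77 for Ier3 (6 and 10 UMIs).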

How the results depend on the processing

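No paired analysis was possible because each group had 1 library. Members called in CML imatinib against CML untreated numbered 4 to 5, and in WT imatinib against WT untreated 5 to 6, over 9 alternatives each. For CML untreated against WT untreated the count was 0 in every alternative except 1 (Egr1) without cells carrying mature-cell marker sums, and for CML imatinib against WT imatinib it was 0 throughout. Within classes, the count of member and class pairs called was 8 of 14 for imatinib in CML (6 to 8 in the alternatives) and 3 of 28 for CML untreated against WT untreated (2 to 4). For CML untreated against WT untreated, the pairs called were not the same in every alternative. For imatinib in WT it was 5 of 14, but 3 under stricter marker thresholds, 3 with at least 1000 UMIs per cell, 3 after thinning to 500 UMIs, and 12 of 21 with cells of several markers kept. Without mature-cell markers the log2 ratio of Ier5 in Hlf cells for imatinib in CML reversed to 0.72. Of 224 recomputed log2 ratios of members over whole libraries, 185 stayed within their counting interval, 39 moved beyond it and 0 called ones changed sign. TMM scaling moved the median log2 ratio of all genes to -0.36 and -0.31 for imatinib in CML and WT, and to -0.15 and -0.25 for CML over WT without and with imatinib. It changed the calls of all genes for imatinib to 202 higher and 716 lower in CML (401 and 339 without TMM) and to 207 and 473 in WT (310 and 223), while the members' ratios lay below those medians in both. The cause of these changes was not tested. Low UMI numbers in imatinib Hlf cells limit every value there.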
